A study of Mus musculus with 112 samples.

Results

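The genes described here encode 10 enzymes of glycolysis, Hk1, Pfkp, Pfkm, Pfkl, Aldoa, Pgk1, Pgam1, Eno2, Ldha and Ldhb, out of 19938 genes measured in mouse cerebral cortex. They were chosen by name, and each gene was read from the probe set that carried its symbol alone and had the highest mean over 112 arrays. The question was how these genes varied with a calorie restricted (CR) diet and with genetic background. In each of 7 strains, 8 male mice ate the CR diet and 8 ate the control diet, with 1 array per mouse. One strain, B6C3F1/J, is the first-generation hybrid of C57BL6/J with C3H/HeJ, and the others, which are inbred, include both parents along with DBA/2J, CBA/J, Balbc/J and 129S1/SvImJ. All mice arrived at 6 weeks of age and were kept singly on 84 kcal per week, diets began at 8 weeks, and cortex was taken at 22 weeks following a night without food. By the study's methods the food given was not equal among strains: Balbc/J mice received more on both diets, and the ration of C57BL6/J and 129S1/SvImJ mice on CR was cut again during the study. The remaining strains shared a ration on each diet, and their control ration equalled the CR ration of Balbc/J mice. Diet therefore did not stand for the same ration in all 7 strains.

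Glycolysis splits glucose into pyruvate in the cytosol and yields ATP and NADH, and the brain relies on glucose as its main fuel. Hexokinase traps glucose in the cell, phosphofructokinase commits it to the pathway, and lactate dehydrogenase interconverts pyruvate and lactate, which neurons and astrocytes are known to handle with different isoenzymes. Several steps are encoded by more than 1 gene, so a tissue can change the isoenzyme mix as well as the total.

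Expression is given as log2 signal, on which a step of 1 is a doubling, and each array had a median between 7.14 and 7.26. The 10 genes were among the brighter ones: Pfkl had a mean signal above those of 85.3% of genes, and Aldoa above those of 99.8%. Marker genes of excitatory neurons averaged 9.80 in CR and 9.76 in control mice, those of astrocytes 9.75 and 9.77, of interneurons 9.41 and 9.39, of oligodendrocytes 9.76 and 9.73, of microglia 8.04 and 8.04, of endothelium 8.20 and 8.20, of the striatum 9.87 and 9.77, of choroid plexus 7.11 and 7.03 and of red cells 7.10 and 7.12, the last pair of lists standing near or below the array medians. On 4 arrays genes of the cerebellum were also raised, by a median of 4.33 in C57BL6/J control replicate 6, 4.17 in B6C3F1/J control replicate 8, 1.43 in DBA/2J control replicate 8 and 1.22 in CBA/J CR replicate 6, relative to the other arrays of each group. On C57BL6/J control replicate 6 the members Pfkl, Pgk1 and Ldha lay 1.17, 0.65 and 0.56 below the other arrays of the group in the same units, so results that rest on these arrays are given with and without them. Cortex is a mixture of cells, and in such bulk samples fewer cells of a type and less RNA per cell cannot be told apart.

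The Hk1 probe set needs a caution before its values are read. It is annotated through 1 accession, and that accession is shared by 16 further probe sets that carry the symbols of both Hk1 and Rpl17, a ribosomal protein gene. Within groups its signal correlated with those 16 at r between 0.47 and 0.72 over 112 arrays. With the other Hk1 probe set, which is annotated by 8 accessions including RefSeq transcripts, the correlation was -0.17. Where Hk1 enters a result below, the value by the other probe set is given too, a choice made after the data were seen, apart from the figures and the pairs of members. Pgk1 had 3 probe sets, of which 2 held identical values, and the third correlated with them at r = 0.995 within groups. Pgam1 likewise had 3, with r = 0.89 between the different ones, and Ldhb had 2, with r = 0.64. Related gene copies can share such probes, so the split of signal between copies of Pgk1 and Pgam1 is uncertain.

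Promoter sequences are printed for 3 members on which the strain and hybrid results turn, Pgk1, Ldha and Ldhb. They come from RefSeq on GRCm38.p6, run 5′ to 3′ on the gene's own strand, and span 250 bases before the annotated start and 50 after it. Capitals mark ACGTG on either strand, the core letters of hypoxia response elements. Pgk1 lies at chrX:106187100-106203699 (window chrX:106186850-106187149, plus strand), Ldha at chr7:46842274-46855627 (first listed window chr7:46845554-46845853, plus strand) and Ldhb at chr6:142490249-142507957 (window chr6:142507908-142508207, minus strand).
Pgk1: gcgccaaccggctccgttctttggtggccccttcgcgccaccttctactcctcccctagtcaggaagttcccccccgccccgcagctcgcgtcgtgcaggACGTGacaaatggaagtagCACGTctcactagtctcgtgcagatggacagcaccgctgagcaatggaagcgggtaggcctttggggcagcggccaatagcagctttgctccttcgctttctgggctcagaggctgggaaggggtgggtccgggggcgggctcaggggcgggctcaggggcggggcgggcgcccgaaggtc
Ldha: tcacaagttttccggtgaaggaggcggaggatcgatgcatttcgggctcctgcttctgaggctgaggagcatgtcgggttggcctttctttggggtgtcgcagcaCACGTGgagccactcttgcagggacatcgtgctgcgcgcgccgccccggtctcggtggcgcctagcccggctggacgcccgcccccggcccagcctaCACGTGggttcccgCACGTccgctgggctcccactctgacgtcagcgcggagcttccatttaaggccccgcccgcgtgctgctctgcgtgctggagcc
Ldhb: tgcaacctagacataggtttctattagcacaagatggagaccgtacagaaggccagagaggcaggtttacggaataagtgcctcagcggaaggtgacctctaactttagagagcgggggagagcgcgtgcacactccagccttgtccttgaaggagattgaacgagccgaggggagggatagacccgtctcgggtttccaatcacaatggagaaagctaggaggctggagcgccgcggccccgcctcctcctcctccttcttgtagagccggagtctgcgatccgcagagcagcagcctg
The Pgk1 window held 2 matches to ACGTG. The Ldha window held 5, since each of its 2 copies of CACGTG reads as ACGTG on both strands, and the Ldhb window held 0. Among the 17 windows listed for the 10 genes, 8 windows of 6 genes had a match, against 19.6% of all 32851 promoter windows of this length. The second Ldha window held 0. Some windows of Aldoa and of Pfkm overlap, so the 17 are not separate stretches, and enrichment was not tested. The letters GGGCGG, the GC box, stood in 7 of the 17 windows, 5 times in that of Pgk1, against 35.7% of all windows. Such matches describe the letters and do not show binding.

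**Figure D1:**
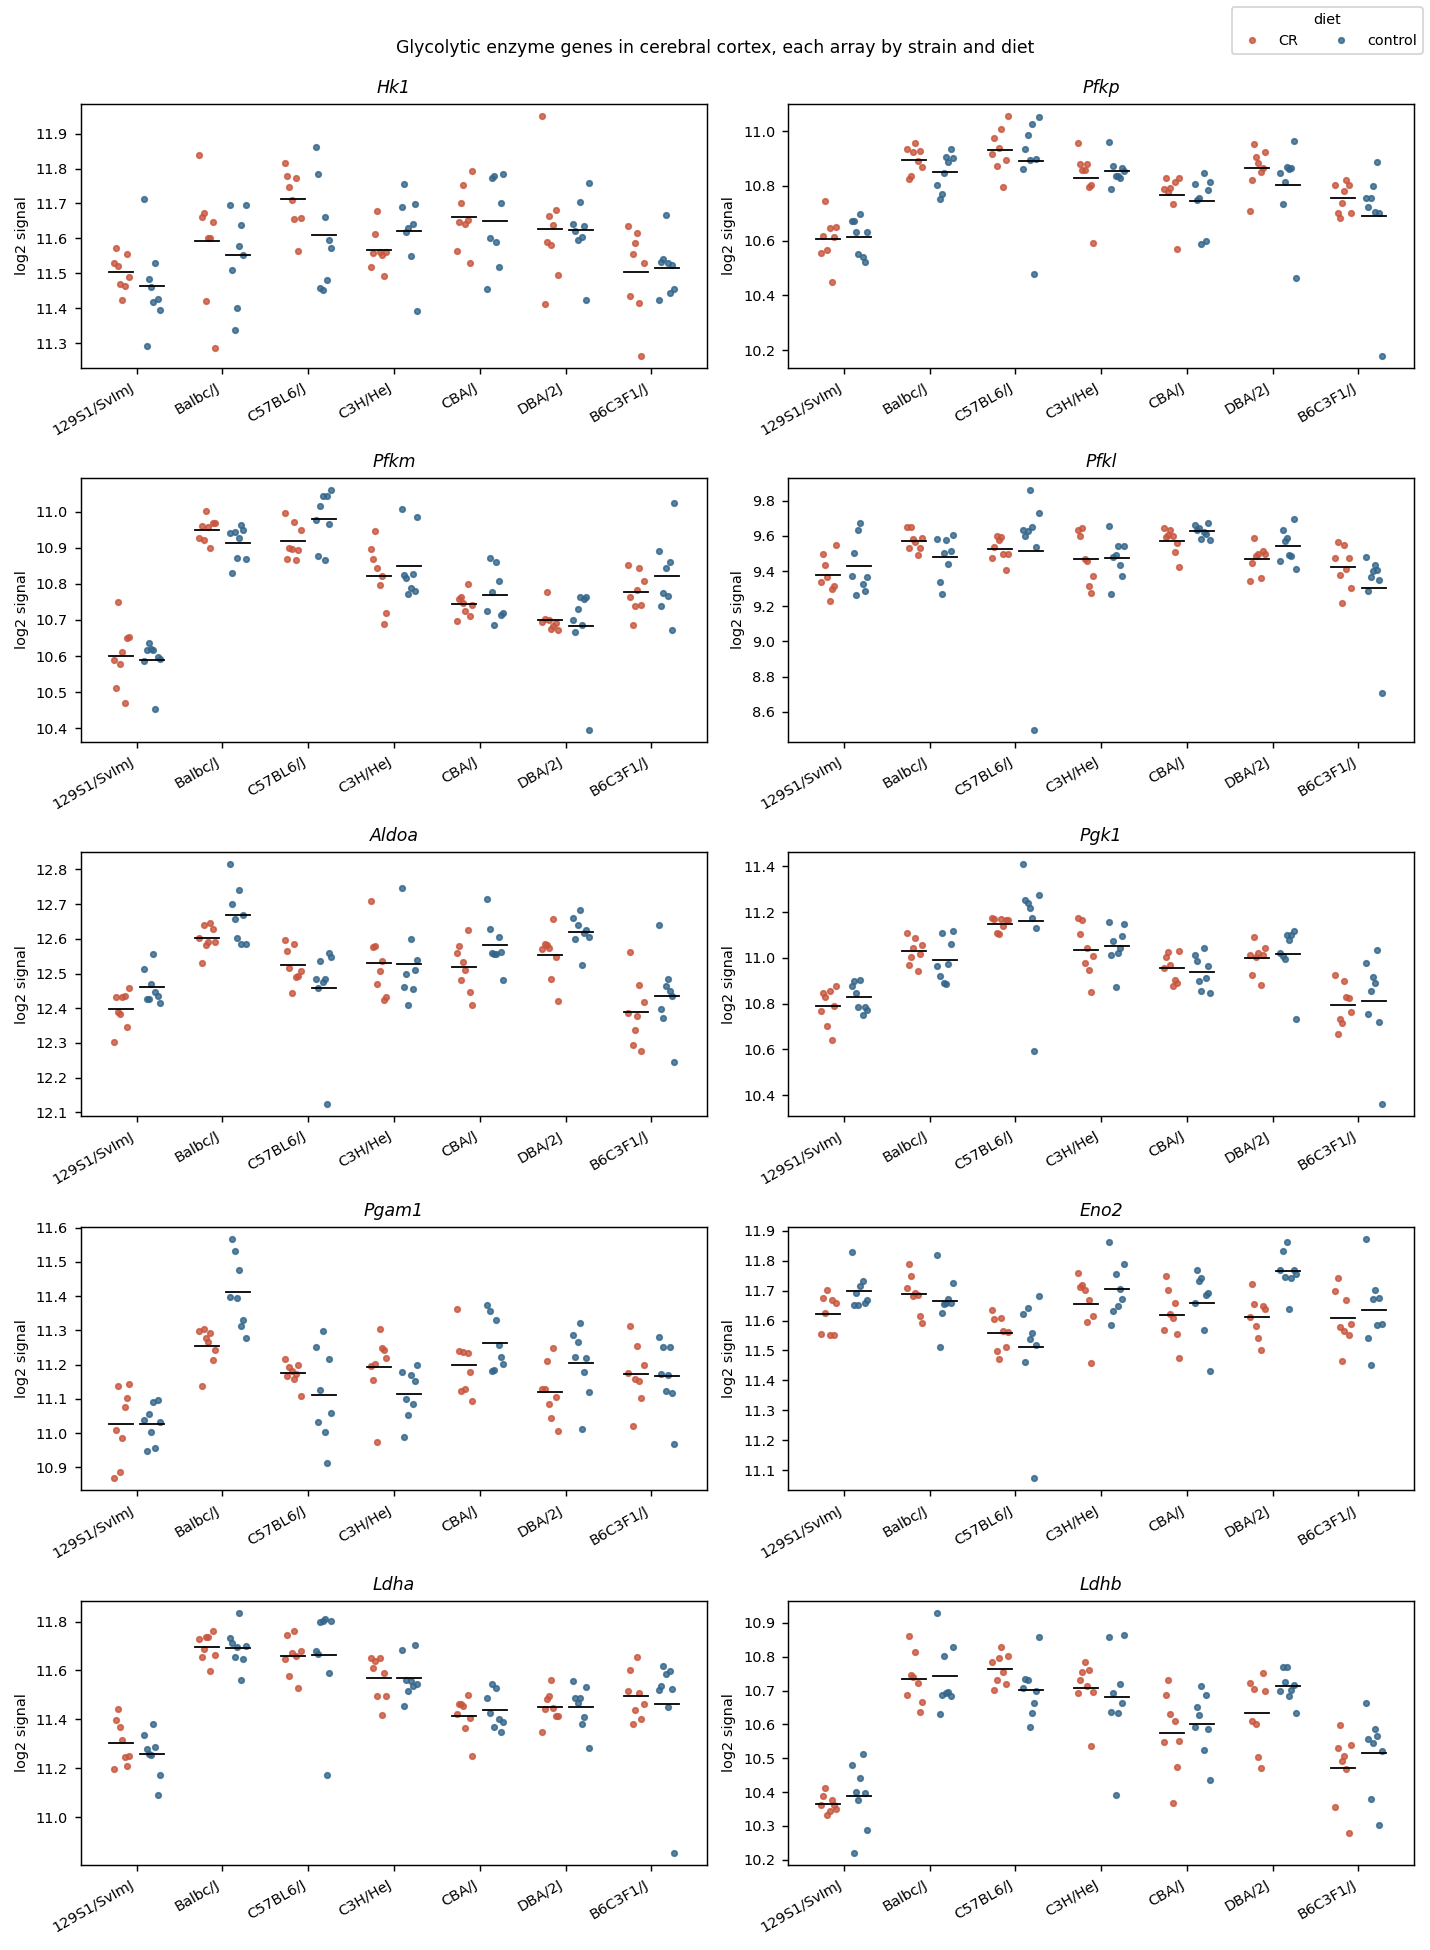
Log2 signal (y axis) of each of the 10 genes on every array, by strain (x axis), with CR mice in red left of control mice in blue and a black bar at each group mean (n = 8). CR and control mice overlapped in every strain, 129S1/SvImJ mice were low for most genes, and single low arrays stood out in C57BL6/J, DBA/2J and B6C3F1/J control mice.

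CR was not followed by a change in any of the 10 genes that passed the test. Averaged over the 7 strains, the difference of CR from control mice lay between -0.041 for Eno2 and 0.028 for Pfkp on the log2 scale, changes of -2.78% and 1.98% in signal. By limma's test with Benjamini-Hochberg adjustment over all genes, 0 of 10 members were called, where 2.34% of 19938 genes were. At an unadjusted p under 0.05, 2 of 10 members passed, Aldoa and Eno2, against 14.3% of all genes. The 95% intervals of the 10 differences together ran from -0.077 to 0.069, which is -5.22% to 4.93% in signal. The median difference was -0.011 over the members and 0.00054 over all genes.

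**Figure D2:**
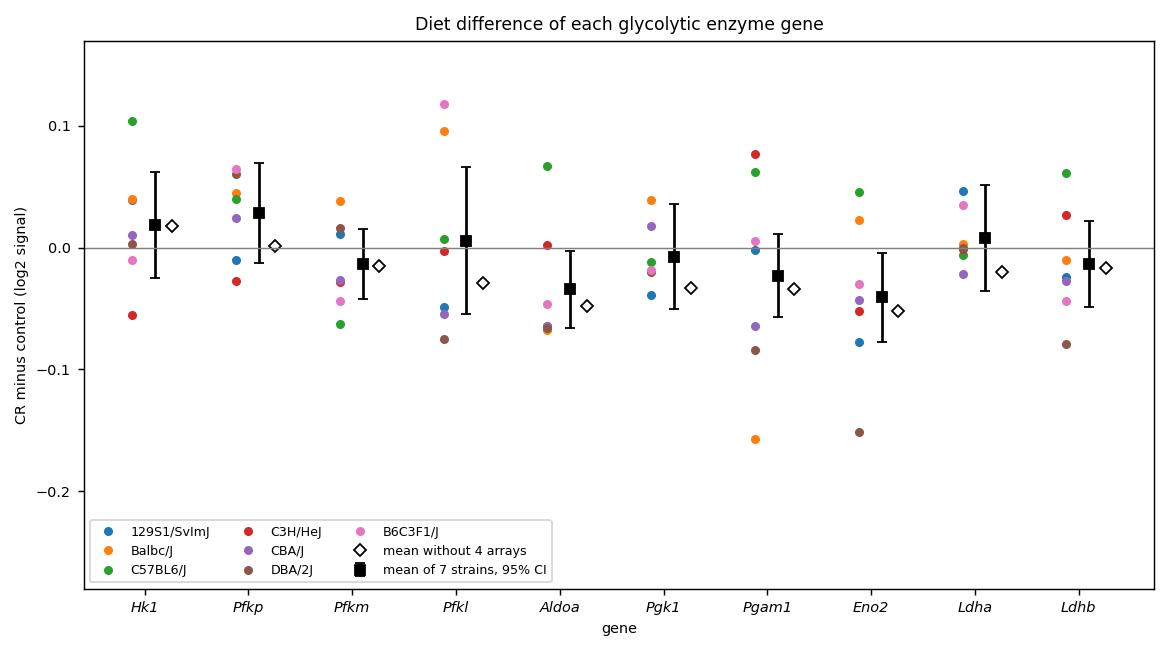
Difference of CR from control mice in log2 signal (y axis) for each gene (x axis), as points for the 7 strains, a square for their mean with its 95% interval, and an open diamond for the mean without the 4 arrays high in cerebellar genes. The means lay between -0.041 and 0.028, and the intervals of Aldoa and Eno2 lay below 0 before adjustment.

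At the entry to the pathway, Hk1, the main brain hexokinase, averaged 11.60 in CR mice and 11.58 in control mice, a difference of 0.019 ± 0.022 (SE). Its other probe set gave -0.022 ± 0.014. Neither passed the test, with limma's adjusted p at 0.79 and, over all probe sets, 0.51, and the signs were opposite. The phosphofructokinase genes Pfkp, Pfkm and Pfkl, named for the platelet, muscle and liver forms, differed by 0.028 ± 0.021, -0.014 ± 0.014 and 0.0055 ± 0.030. Pfkl had the widest interval of the 10 genes, from -0.055 to 0.066, and without the 4 arrays high in cerebellar genes its difference was -0.029 ± 0.020.

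Aldoa, the aldolase that cleaves fructose bisphosphate, averaged 12.50 in CR mice and 12.54 in control mice, a difference of -0.034 ± 0.016. It was lower in 5 strains and higher in 2, C57BL6/J and C3H/HeJ, and its adjusted p was 0.29. Without the 2 arrays highest in cerebellar genes the difference was -0.045 (adjusted p = 0.046), and without all 4 it was -0.048 ± 0.014 (adjusted p = 0.034). Over the alternatives tried, Aldoa's adjusted p ran from 0.034 to 0.55. Without the 4 arrays it was the 1 member called, where 4.39% of all genes were called in either direction and 2.77% of all genes as lower. Aldoa in C57BL6/J control replicate 6 lay 0.38 below the other arrays of that group.

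Further down the pathway, Pgk1 and Pgam1 encode the kinase that makes the first ATP and the mutase that follows it. Pgk1 differed between the diets by -0.0073 ± 0.022 and Pgam1 by -0.023 ± 0.017. Eno2, the enolase of neurons, averaged 11.62 in CR mice and 11.66 in control mice, a difference of -0.041 ± 0.018 that was negative in 5 strains (adjusted p = 0.27, and 0.057 without the 4 arrays). The lactate dehydrogenase genes differed by 0.0079 ± 0.022 for Ldha, the muscle-type subunit, and by -0.014 ± 0.018 for Ldhb, the heart-type subunit. The other Ldhb probe set gave -0.044 ± 0.019, which had an unadjusted p of 0.020 and an adjusted p of 0.22 over all probe sets.

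Within single strains, 0 of 70 comparisons of CR with control mice were called, where 0.0272% of all genes by strains were, and 2 of 70 passed an unadjusted p under 0.05, where 6.76% did. CR and control mice overlapped in 70 of 70, and groups that did not overlap made up 0.0738% of all such comparisons. The larger of these 2 differences was that of Pgam1 in Balbc/J mice. There Pgam1 had a lowest, median and highest signal of 11.14, 11.27 and 11.30 in CR mice, against 11.28, 11.40 and 11.57 in control mice. The ranges met at their edges only. The fitted difference was -0.16 ± 0.045 (adjusted p = 0.25), and C3H/HeJ mice lay the other way, at 0.077 ± 0.045. The other Pgam1 probe sets, which hold identical values, gave -0.063 ± 0.039 in Balbc/J mice (adjusted p = 0.82 over all probe sets).

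Eno2 in DBA/2J mice was the second. Its lowest, median and highest signals were 11.50, 11.63 and 11.72 in CR mice, against 11.64, 11.76 and 11.86 in control mice. The medians stood apart by more than the SD within either group, and the fitted difference was -0.15 ± 0.049 (adjusted p = 0.52). The test of whether the diet difference varied among strains called 0 of 10 members by limma, where 0.0401% of genes were called. Pgam1 alone passed an unadjusted p under 0.05, where 6.11% of all genes did, and its adjusted p from limma was 0.57, or 0.98 by its other probe sets.

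Strain, unlike diet, separated the signals of these genes. Among control mice the 7 strains differed for 10 of 10 members by limma's F test, where 65.4% of all genes were called, and among CR mice for 8 of 10, where 56.8% were. Pfkl and Eno2 were the 2 that missed among CR mice, with adjusted p of 0.19 and 0.29. Without the 4 arrays high in cerebellar genes Pfkl passed (adjusted p = 0.0019) and Eno2 did not (adjusted p = 0.15), so 9 of 10 were called. The share of all genes called on that set was not computed. With the other Hk1 probe set the counts on all arrays were 9 of 10 among control and 7 of 10 among CR mice. These shares stand near a high background, and the sizes were moderate: the range of the 7 control means was 0.19 for Hk1 and 0.44 for Ldha, the smallest and largest, against a median of 0.27 over all genes. Strain accounted for 18.2% to 73.2% of the variance of each gene, and diet for 0.026% to 3.48%. The labels give no array batch, so batch and strain cannot be told apart. Whether the strains differ in sequence under the probes was not tested.

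**Figure D3:**
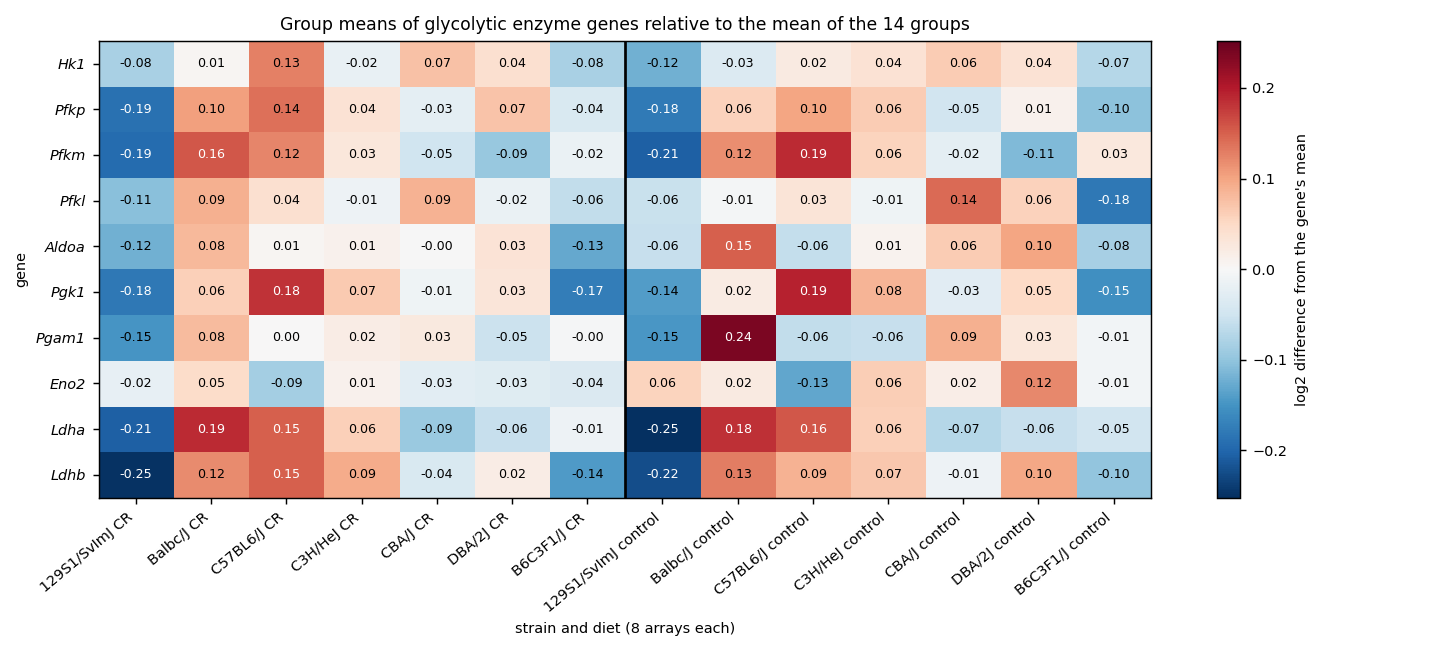
Mean log2 signal of each gene (rows) in each strain and diet group (columns, CR mice left of the line and control mice right of it, 8 arrays each), as the difference from that gene's mean over the 14 groups. Columns of 129S1/SvImJ were blue for most rows in both diets, down to -0.25 for Ldha in control mice, and Pgam1 reached 0.24 in Balbc/J control mice.

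129S1/SvImJ had the lowest mean of the 7 strains for 8 of 10 members among CR mice and for 6 of 10 among control mice, where it was lowest for 21.3% and 21.8% of all genes. The exceptions among control mice were Pfkl, Aldoa and Pgk1, lowest in B6C3F1/J, and Eno2, lowest in C57BL6/J. Without the 4 arrays high in cerebellar genes 129S1/SvImJ was lowest for 8 of 10 among control mice too, Aldoa and Pgk1 included, where it was lowest for 23.4% of genes. With the other Hk1 probe set the counts on all arrays were 7 among CR and 5 among control mice. In pairs of strains among control mice, 87 of 210 member comparisons were called, where 23.7% of all gene comparisons were, and 84 with the other Hk1 probe set. Without the 4 arrays 104 were called, a set for which no share over all genes was computed. Pairs with 129S1/SvImJ gave 36 of these 87, out of 60, and 129S1/SvImJ was the lower strain in 35. The 3 Hk1 pairs called by the first probe set were all among the 36. The share of all genes called in pairs with this strain was not computed. Among control mice it had the highest mean for 28.3% of all genes. Set against the mean of the 6 other strains over both diets, a contrast chosen after the values were seen and so given without a test, 129S1/SvImJ was lower by the most for Ldhb (-0.28 ± 0.026, SE) and Ldha (-0.27 ± 0.031), and Eno2 was the gene that lay higher (0.021 ± 0.026). The median of this difference over all genes was 0.020.

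Along the 7 control means the neighbours in order could seldom be separated. Of 60 steps between adjacent strains, 3 were called: Pgam1 from Balbc/J to CBA/J, Ldha from CBA/J to 129S1/SvImJ and Ldhb from B6C3F1/J to 129S1/SvImJ. The share of such steps called over all genes was not computed.

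Of the phosphofructokinase genes, Pfkm differed most clearly among strains. Its lowest, median and highest signals in 129S1/SvImJ mice were 10.47, 10.60 and 10.75 on the CR diet and 10.45, 10.61 and 10.64 on the control diet. In C57BL6/J mice they were 10.87, 10.90 and 10.998 on the CR diet and 10.87, 10.997 and 11.06 on the control diet. No 129S1/SvImJ array reached the lowest C57BL6/J array in either diet. These strains were picked as the lowest and highest control means, and the share of all genes so separated was not computed. The order of the control means ran from 129S1/SvImJ (10.59) through DBA/2J (10.68), CBA/J (10.77), B6C3F1/J (10.82), C3H/HeJ (10.85) and Balbc/J (10.91) to C57BL6/J (10.98), and the adjusted p among control mice was 1.86e-16. Pfkp also ran from 129S1/SvImJ (10.61) to C57BL6/J (10.89), with an adjusted p of 1.74e-05. For Pfkl the control means ran from B6C3F1/J (9.30) to CBA/J (9.63), and the call moved with the arrays used: its adjusted p was 0.015 on all arrays, 0.085 without B6C3F1/J control replicate 8 alone and 5.72e-06 without all 4 arrays high in cerebellar genes. Without those 4, C57BL6/J had the highest Pfkl mean (9.66) and B6C3F1/J still the lowest (9.39).

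The lactate dehydrogenase genes had the lowest signals in 129S1/SvImJ mice on both diets. Ldha in 129S1/SvImJ mice had a lowest, median and highest signal of 11.20, 11.28 and 11.44 on the CR diet and 11.09, 11.27 and 11.38 on the control diet. In Balbc/J mice, the highest strain on all arrays, they were 11.60, 11.71 and 11.76 on the CR diet and 11.56, 11.70 and 11.84 on the control diet. The 2 strains did not overlap on either diet, a 1.35-fold range among control means, and the 7 strains stood in the same order in CR as in control mice (Spearman's rho = 1 over 7 strains). Here too 129S1/SvImJ and Balbc/J were picked as the lowest and highest control means. How many of all genes lack such overlap was not computed. With those 4 cerebellar-high arrays left out, the control mean of C57BL6/J (11.74) lay above that of Balbc/J (11.69). Limma's adjusted p among control mice was 3.02e-10.

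Ldhb in 129S1/SvImJ mice had a lowest, median and highest signal of 10.33, 10.36 and 10.41 on the CR diet and 10.22, 10.40 and 10.51 on the control diet. Balbc/J mice had 10.64, 10.73 and 10.86 on the CR diet and 10.63, 10.69 and 10.93 on the control diet. Again no array was shared between the ranges of the 2 strains, which were picked for their control means, with no share over all genes computed. The adjusted p was 1.05e-13 among CR mice and 4.10e-11 among control mice, and the other Ldhb probe set had a similar range of control means, 0.40 beside 0.35.

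Pgk1 control means lay between 10.81 in B6C3F1/J and 11.16 in C57BL6/J, with 129S1/SvImJ next to the lowest at 10.83. Without the 4 arrays 129S1/SvImJ was lowest and B6C3F1/J averaged 10.88, and among CR mice both low strains stood at 10.79. Aldoa and Pgam1 were highest in Balbc/J mice. Aldoa averaged 12.67 there among control mice and 12.44 in B6C3F1/J, and Pgam1 averaged 11.41 in Balbc/J and 11.03 in 129S1/SvImJ. Eno2 departed from this order, lowest in C57BL6/J (11.51) and highest in DBA/2J (11.76), and without the 4 arrays its range over control means was 0.19 in place of 0.25. For Hk1, the control means ran from 129S1/SvImJ (11.46) to CBA/J (11.65). On the other Hk1 probe set the range was 0.094 and the strains did not pass the test (adjusted p = 0.37).

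Genes of some marker lists differed among strains too, where 65.4% of all genes did among control mice. The mean of 10 astrocyte genes, of 10 listed, was 9.55 in CR and 9.52 in control mice of 129S1/SvImJ, the lowest of the strains on both diets, and 9.92 and 9.96 in Balbc/J, the highest, and 9 of the 10 differed among strains. The mean of 9 excitatory neuron genes, of 10 listed, was 9.83 in CR and 9.89 in control mice of 129S1/SvImJ, and 9.77 and 9.78 in Balbc/J. Within groups and without the 4 arrays, the astrocyte mean correlated with Ldha at r = -0.065 and with Ldhb at r = 0.12 over 108 arrays. Microglial and endothelial means were lowest in 129S1/SvImJ as well, at 7.89 and 7.98 in CR and 7.92 and 8.01 in control mice, and 9 of 9 and 8 of 9 of their measured genes differed among strains. Their correlations were 0.24 (microglial) and 0.27 (endothelial) with Ldha, and 0.38 and 0.34 with Ldhb. Lists not lowest in 129S1/SvImJ on both diets correlated with Ldhb too, at 0.44 (interneuron), 0.42 (oligodendrocyte), 0.48 (striatal) and -0.27 (excitatory neuron). With Ldha the same lists stood at 0.21, -0.11, -0.010 and 0.31. Among control mice, 3 of 9 excitatory neuron, 6 of 10 interneuron and 7 of 9 oligodendrocyte genes differed among strains. So did 2 of 9 choroid plexus, 2 of 2 red cell and 0 of 8 striatal genes. The part of cell composition in the strain differences was not tested.

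The hybrid B6C3F1/J lay below the mean of its parental strains for most members. Averaged over the diets, 8 of 10 members were called lower in B6C3F1/J than the mean of C57BL6/J and C3H/HeJ, and 0 were called higher by limma, where 17.2% of all genes were called lower, 14.7% higher and 31.9% in either direction. For all 8 the hybrid mean was below that of each parent, and 4 of them, Pfkp, Aldoa, Pgk1 and Ldhb, were called lower against each parent tested on its own, where 7.17% of genes were. With the other Hk1 probe set the count was 7 of 10, since that probe set gave 0.023 (adjusted p = 0.47) in place of -0.12 ± 0.036.

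**Figure D4:**
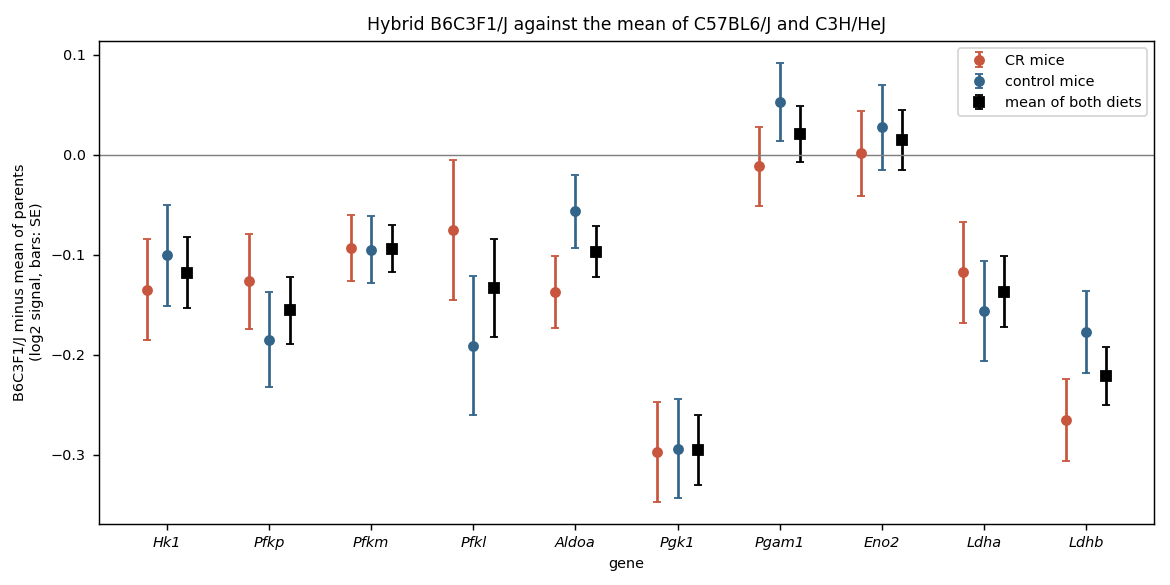
Difference of B6C3F1/J mice from the mean of C57BL6/J and C3H/HeJ mice in log2 signal (y axis, bars show the SE) for each gene (x axis), for CR mice in red, control mice in blue and their mean in black. Pgk1 lay lowest, near -0.30 on either diet, and Pgam1 and Eno2 lay near 0.

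Pgk1 showed the largest gap. Its lowest, median and highest signals on the CR diet were 10.67, 10.80 and 10.92 in B6C3F1/J, against 11.10, 11.17 and 11.18 in C57BL6/J and 10.85, 11.03 and 11.17 in C3H/HeJ. On the control diet they were 10.36, 10.87 and 11.03 in B6C3F1/J, against 10.59, 11.23 and 11.41 in C57BL6/J and 10.87, 11.06 and 11.16 in C3H/HeJ. On the CR diet no hybrid array reached C57BL6/J, while hybrid and C3H/HeJ arrays overlapped. The share of all genes with such a gap between hybrid and parent was not computed. The difference from the parental mean was -0.30 ± 0.035, a ratio of 0.81, with an adjusted p of 2.66e-11, and it was -0.28 without the 4 arrays. Against each parent on its own it was -0.35 (C57BL6/J) and -0.24 (C3H/HeJ). Pgk1 lies on the X chromosome and all mice were male, and the part of this position in the gap was not tested.

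Ldhb was next. Its lowest, median and highest signals on the CR diet were 10.28, 10.50 and 10.60 in B6C3F1/J, against 10.70, 10.77 and 10.83 in C57BL6/J and 10.53, 10.72 and 10.78 in C3H/HeJ. On the control diet they were 10.30, 10.55 and 10.66 in B6C3F1/J, against 10.59, 10.70 and 10.86 in C57BL6/J and 10.39, 10.68 and 10.86 in C3H/HeJ. The hybrid lay apart from C57BL6/J on the CR diet, a gap for which no share over all genes was computed. It overlapped C3H/HeJ on that diet and both parents on the control diet. The difference was -0.22 ± 0.029 (adjusted p = 6.55e-10), and the other probe set gave -0.23.

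The remaining called members lay between -0.16 and -0.094. Pfkp differed by -0.16 ± 0.034, Ldha by -0.14 ± 0.036, Pfkl by -0.13 ± 0.049, Aldoa by -0.097 ± 0.026 and Pfkm by -0.094 ± 0.023. For Pfkl the difference was -0.091 (adjusted p = 0.13) without B6C3F1/J control replicate 8 alone and -0.13 (adjusted p = 0.00095) without all 4 arrays high in cerebellar genes. Under quantile normalization Pfkl (adjusted p = 0.080) and Aldoa (-0.059, adjusted p = 0.083) were not called, and 6 of 10 were. Pgam1 (0.021 ± 0.028) and Eno2 (0.015 ± 0.030) were the members that did not pass. Taken by diet, 6 of 10 members were called lower among CR mice and 6 of 10 among control mice, where 10.5% and 9.77% of genes were, and 4 were called on both diets. With the other Hk1 probe set, which differed by 0.038 ± 0.032 among CR mice, 5 were called among CR and 6 among control mice. Marker genes of several cell types were called lower in the hybrid too, where 17.2% of all genes were: 6 of 10 astrocyte, 4 of 9 endothelial and 3 of 9 microglial genes, with 0 of these lists' genes called higher by limma. Other lists differed: 0 of 9 excitatory neuron genes were called lower and 1 higher, and 0 of 10 interneuron genes were called. Of 9 oligodendrocyte genes 1 was called lower and 1 higher. Of striatal genes 5 of 8 measured were called lower, with group means of 9.58 and 9.32 in CR and control B6C3F1/J mice, against 10.26 and 9.80 in C57BL6/J and 10.26 and 9.996 in C3H/HeJ mice. Within groups and without the 4 arrays, the striatal mean correlated with Ldhb at r = 0.48 and with Pgk1 at r = -0.20. The part of dissection and cell composition in the hybrid differences was not tested.

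Within groups, the 10 genes tended to vary together from mouse to mouse. Of 45 pairs, 41 had a positive correlation of deviations from the group means over 112 arrays, with a median r of 0.26 (0.24 without the 4 arrays). Pfkm and Pgk1 stood highest without the 4 arrays (r = 0.58), and Hk1 and Pgam1 lowest (r = -0.21, or 0.28 with the other Hk1 probe set). Pfkp and Pgam1 stood at r = 0.23 on all arrays and at r = -0.039 without the 4. Arrays share their RNA quality and composition across genes, so these values are a description. Values for other sets of genes were not computed, so co-variation cannot be called particular to these 10. The genes most like each member in the same measure were Slc39a10 for Pfkp (r = 0.84) and for Pgk1 (0.81), Hgsnat for Pfkm (0.81), Lin7b for Pfkl (0.87), Otub1 for Aldoa (0.77) and for Eno2 (0.76), Uqcc2 for Pgam1 (0.68), Dclk1 for Ldha (0.81), Slc25a5 for Ldhb (0.70) and Gm6548 for Hk1 (0.70), or Gabbr2 (0.76) by the other Hk1 probe set. Without the 4 arrays Slc39a10 (Pfkp), Hgsnat, Slc25a5 and Gm6548 kept that place, while it passed to Svop for Pfkl, Mdh2 for Aldoa, Gars for Pgk1, Acot7 for Pgam1, Gstm5 for Eno2 and Prps1 for Ldha. Over those 108 arrays Eno2 correlated with the mean of 10 interneuron genes at r = 0.63, but with that of excitatory neuron genes at r = -0.10. Pfkp correlated with the excitatory neuron mean at r = 0.56, but with the interneuron mean at r = -0.0051. These lists were picked after the values were seen.

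In the wider pathway, as over all genes, more genes were called among strains than for diet. Of 94 listed genes of glycolysis, glucose and lactate transport, glycolytic control, pyruvate entry, NADH shuttles, the pentose phosphate pathway and glycogen metabolism, 84 were measured under a symbol of their own. Gapdh, Gpi1 and Eno1 were among those not analysed here. For diet, 1 of 84 rose and 0 fell, where 1.17% of all genes rose and 1.17% fell. The gene that rose was Pdp1, a phosphatase that activates pyruvate dehydrogenase. It averaged 11.66 in CR mice and 11.52 in control mice, a difference of 0.13 ± 0.038 (adjusted p = 0.040) that was positive in 7 of 7 strains. Without the 4 arrays it was 0.084 (adjusted p = 0.026), and over all alternatives its adjusted p ran from 0.021 to 0.18.

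Among control mice, 69 of the 84 differed among strains, where 65.4% of all genes did. A strain by diet interaction was called for 0 of the 84, where it was for 0.0401% of all genes. 129S1/SvImJ had the lowest mean for 40 of the 84 on the CR diet and for 41 of the 84 on the control diet, where it was lowest for 21.3% and 21.8% of all genes. The largest ranges among those called were those of Pdk4, a pyruvate dehydrogenase kinase (0.99, from 7.87 in C57BL6/J to 8.87 in Balbc/J), Dld, the shared subunit of the 2-oxoacid dehydrogenases (0.93), Slc16a1, a monocarboxylate transporter (0.78), Pdhb, a pyruvate dehydrogenase subunit (0.73), Pfkfb3, which makes the activator of phosphofructokinase (0.70), and Slc2a5, a fructose transporter (0.66). Dld, Pdhb and Pfkfb3 were lowest in 129S1/SvImJ. In B6C3F1/J, 30 of the 84 were called lower than the parental mean and 8 higher, where 17.2% and 14.7% of all genes were. The smallest p values belonged to Mpc1, a subunit of the mitochondrial pyruvate carrier (-0.27 ± 0.028, adjusted p = 4.22e-13), and Dld (-0.30 ± 0.034, adjusted p = 2.97e-12). Of the other glycolytic enzymes, 13 of 19 were measured. Of the 13, 7 differed among strains, where 65.4% of all genes did. In the hybrid 4 were lower, where 17.2% of all genes were, among them the brain aldolase Aldoc (-0.12 ± 0.032).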

How the data were processed

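Cortex RNA of 112 mice was measured on Affymetrix Mouse Gene ST arrays, and the authors deposited log2 signals made with RMA in Affymetrix Expression Console, as the submitters' processing notes name them (versions not given in the sources used here). Since RMA gives every array nearly the same distribution, changes common to all genes are hidden. Of 35556 probe sets, 21789 had 1 gene symbol, 1621 several and 12146 none. Of these, 999 of 19938 genes had over 1 probe set, and the one with the highest mean was used. A model of 14 group means (98 residual degrees of freedom) was fitted to all genes with limma 3.58.1 in R 4.3.3, with Benjamini-Hochberg adjustment over all genes (over genes by pairs for strain pairs) and a threshold of 0.05. The contrasts were CR minus control within and averaged over strains, their interaction, strains within diet, pairs of strains among control mice, and B6C3F1/J minus its parental mean. The methods' t-test within strains was an alternative. The code was tested on simulated data. Precision is limited by how many arrays there were, and the median SE over genes was 0.026 for the diet difference across strains and 0.068 within a strain. Per the labels each array is 1 mouse.

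The 10 members and the gene lists were chosen with earlier results of these data known. Named beyond the members are up to 10 listed genes called for diet, the 6 widest called among strains, the 2 of smallest p called for the hybrid or the interaction, and for each member the genes of highest r among its 3 most alike. Left-out strains, normalizations, filters, weights, probe set choice and covariates were tried as alternatives. Figures were drawn with matplotlib 3.10.9.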

Additional observations from a re-analysis of the deposited data

Results flagged for a closer look

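In each of 140 sets of 8 mice (10 genes by 14 groups), the gap of the most extreme array to its nearest neighbour was divided by the range of the set, and 20 sets exceeded Dixon's critical ratio at the 95% level. Chance gives about 1 in 20. Of the 20, 13 lay on the 4 arrays high in cerebellar genes and 7 on other arrays. All were low arrays except 2 named as high below.

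C57BL6/J control replicate 6 was low for Aldoa (ratio 0.767), Pfkl (0.761), Pfkp (0.670), Pgk1 (0.660), Ldha (0.650) and Eno2 (0.637), and its Pfkl signal was 8.50 against 9.53 in the nearest array. B6C3F1/J control replicate 8 was low for Ldha (0.781), Pfkl (0.748), Pfkp (0.739) and Pgk1 (0.536), with an Ldha signal of 10.85 against 11.45 in the nearest array. DBA/2J control replicate 8 was low for Pfkm (0.734), Pgk1 (0.681) and Pfkp (0.540).

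On arrays outside those 4, Pfkm was low in 129S1/SvImJ control replicate 6 (0.732) and high in DBA/2J CR replicate 3 (0.707). Ldhb was low in C3H/HeJ CR replicate 7 (0.638), Pfkp in CBA/J CR replicate 7 (0.623) and in C3H/HeJ CR replicate 8 (0.561), and Pgam1 in C3H/HeJ CR replicate 4 (0.548). Eno2 was high in 129S1/SvImJ control replicate 1 (0.555).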

How the results depend on the processing

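For the diet difference of single members and Pdp1, 205 of 231 alternative values kept direction and side of the threshold. For strain ranges 205 of 207 did, and for the hybrid 147 of 156. Without both arrays highest in cerebellar genes 1 member, Aldoa, was called for diet, and 1, again Aldoa, without all 4. Within strains the methods' t-test found 2 at an unadjusted p under 0.01 and 0 after Benjamini-Hochberg adjustment. Called lower than each parent on its own, the hybrid count was 4 in place of 8. The number of members called among strains was 9 to 10 for control mice and 7 to 10 for CR mice, and 83 to 108 pairs of strains were called.

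In 21 cases a sign turned, and 0 of these values were called. The cause was not tested. The diet difference of Pfkl was -0.029 with array weights, -0.027 without both arrays highest in cerebellar genes, -0.029 without all 4, -0.031 with array quality as a covariate, -0.0095 without Balbc/J and -0.013 without B6C3F1/J. That of Ldha was -0.012, -0.015, -0.020 and -0.017 under the first 4 of these. Leaving out C57BL6/J control replicate 6 gave -0.015 for Pfkl and -0.0021 for Ldha, and leaving out B6C3F1/J control replicate 8 gave -0.0066 for Pfkl and -0.0045 for Ldha. Centring each array on its median gave hybrid differences of -0.011 for Pgam1 and -0.017 for Eno2, and Eno2 had -0.015 with array weights and -0.0012 without C57BL6/J control replicate 6, though 0.018, its sign kept, without B6C3F1/J control replicate 8. By the probe set of lowest mean, Hk1 had -0.022 for diet and 0.023 for the hybrid, and Pgam1 -0.0046 for the hybrid.

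With the replicate number as a block, 0 members were called for diet, within strains or for the interaction, 10 and 8 among control and CR strains, 89 for pairs and 8 for the hybrid. Nothing in the labels says that a number marks a shared batch. Deviations of same-numbered CR and control arrays correlated at r between -0.48 and 0.37 (median 0.11) over 56 pairs, 31 of them over 0.1. Of the 56, 14 correlated best with their own number, and the number given by chance was not computed. Whether a number marks a shared batch was not tested, and the main fit used no block. With the block the pairs of strains called were 89 in place of 87, while the other counts stayed at their values. Depth is not measured by arrays, and all 10 genes lay above most genes in signal.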

Other observations

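Without the 4 arrays high in cerebellar genes, Pkm, the last enzyme of glycolysis, had a difference of CR from control mice of -0.047 (adjusted p = 0.039), against -0.042 (adjusted p = 0.10) on all arrays. Epm2a, laforin of glycogen metabolism, had -0.065 (adjusted p = 0.033), against -0.053 (adjusted p = 0.15). These were the 2 of 84 pathway genes called lower on that set, where 2.77% of all genes were, and Pdp1 was the 1 called higher. The p values of the remaining alternatives were not computed for Pkm and Epm2a.

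Of 12 glucose and lactate transport genes, 2 were called lower and 3 higher in the hybrid, where 17.2% and 14.7% of all genes were. Bsg, the chaperone of monocarboxylate transporters, was higher in B6C3F1/J than its parental mean by 0.16 ± 0.022 (adjusted p = 7.85e-09), while Slc2a3, the neuronal glucose transporter, differed by -0.12 ± 0.026 (adjusted p = 9.92e-05). Both were picked after their values were seen.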
